A study of Mus musculus with 12 samples.

Results

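The endothelial response to blood flow was followed through 9 genes, chosen by name from a deposited table of 21638 genes. All 9 passed the filter on low counts, so each was among the 12577 genes tested. They were the transcription factor genes Klf2 and Klf4, the kinase genes Map2k5 and Mapk7 (MEK5 and ERK5), the channel gene Piezo1, the receptor gene S1pr1, the nitric oxide synthase gene Nos3 with Nostrin, and the vasoconstrictor gene Edn1. RNA came from adult mouse brain cortical endothelial cells that were sorted as CD31+ CD41- CD45- cells, in 4 groups of 3 libraries. WT was the control, and the labels do not state whether WT mice carried Cre or received tamoxifen. The other groups were Hdac2 ECKO (Hdac2lox/lox with Cdh5CreERT2), Ezh2 ECKO (Ezh2lox/lox with Cdh5CreERT2) and beta-catenin GOF (Ctnnb1lox/lox with Cdh5CreERT2, described as constitutive activation of beta-catenin). Hdac2 is a histone deacetylase, and Ezh2 is the methyltransferase of Polycomb repressive complex 2. Cdh5CreERT2 is a tamoxifen-inducible Cre recombinase expressed in endothelium, and its activity is not restricted to the brain. Mutant mice had 5 tamoxifen doses of 75 mg/kg and were sampled 2 months later. The labels do not say whether the 3 libraries of a group came from separate mice, so p-values measure the spread between these libraries, which may be technical.

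Laminar shear stress is sensed at the endothelial surface and passes through the kinases MEKK3, MEK5 and ERK5 to MEF2 transcription factors, which switch on Klf2 and Klf4. These KLF factors keep vessels quiescent: they raise Nos3, which makes the vasodilator nitric oxide, and lower Edn1, which encodes the vasoconstrictor endothelin-1. In brain endothelium the CCM complex restrains this cascade, and its loss raises Klf2 and Klf4 and leads to cavernous malformations.

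The promoters of Klf2 and Klf4 are shown because both genes are described as endpoints of the same ERK5 and MEF2 cascade. Each sequence is from RefSeq on GRCm38.p6, on the gene's own strand, and ends before the gene's annotated first base. The window of Klf2 is chr8:72318812-72319032 (plus strand, 221 bases), with a match to the MEF2 motif in capitals. The window of Klf4 is chr4:55532476-55532725 (minus strand, 250 bases).
Klf2: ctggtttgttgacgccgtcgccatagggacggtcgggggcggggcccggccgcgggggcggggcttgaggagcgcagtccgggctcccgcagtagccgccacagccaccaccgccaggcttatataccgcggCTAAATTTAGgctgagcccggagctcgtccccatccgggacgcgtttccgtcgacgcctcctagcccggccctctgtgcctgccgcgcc
Klf4: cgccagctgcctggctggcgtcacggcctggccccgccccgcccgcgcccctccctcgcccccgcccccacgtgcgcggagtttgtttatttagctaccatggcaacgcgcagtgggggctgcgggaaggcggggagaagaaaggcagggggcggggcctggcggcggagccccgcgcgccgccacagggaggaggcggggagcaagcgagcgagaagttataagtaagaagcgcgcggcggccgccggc
The Klf2 match CTAAATTTAG lies at 72318944 to 72318953 on chromosome 8, 118 to 109 bases before the RefSeq start, and reads as a MEF2 match on both strands. Over the 32851 RefSeq promoters searched on both strands in the 250 bases before the start, 2.92% held a MEF2 match. No MEF2 match was found in these windows of Klf4, Nostrin, Piezo1, Edn1, Map2k5 or Mapk7. The KLF recognition letters CACCC, searched on both strands, were in 52% of all promoters and were present in those 250 bases for Klf2, Piezo1, Mapk7 and Edn1. The Klf2 match lies at 72319043 to 72319047, past the printed stretch and inside the gene as annotated in the deposited table. The letters TGANTCA, an AP-1 motif, were in 6.75% of promoters and in none of these members' windows, and GGGCGG was in 32.7%, Klf2, Klf4, Piezo1, Map2k5 and Mapk7 included. The table held 7 of the 9 members, with 2 starts for Mapk7, and Nos3 and S1pr1 were not matched.

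The libraries held 24781070 to 36109975 counts, and all 18 endothelial markers were above 0 in every library. Levels are given as CPM, the count per 1000000 counts of the scaled library total. Neither Ezh2 nor Hdac2 separated its knockout from WT. Ezh2 stood at 8.88, 2.69 and 8.68 CPM in WT and at 9.85, 5.19 and 11.7 CPM in Ezh2 ECKO. Ezh2 was thus not lower in those libraries, and they are called labelled Ezh2 ECKO to mark this. Hdac2 was at 162, 121 and 104 CPM in WT, against 82.2, 94.9 and 112 CPM in the Hdac2 ECKO libraries (log2 fold change −0.42, SE 0.24, adjusted p 0.22 in edgeR). Its mean was as low in beta-catenin GOF, at 96.1 CPM beside 96.5 CPM in Hdac2 ECKO (−0.43 against WT, adjusted p 0.88 in edgeR). A lower Hdac2 was thus not particular to Hdac2 ECKO. Ctnnb1, the targeted gene of beta-catenin GOF, averaged 583 CPM there and 654 CPM in WT, with overlapping values. Counts per gene do not resolve a deleted exon, so the labels could not be checked by these levels. The first principal component of all tested genes held 41.1% of the variance. Replicates 1 and 3 of Hdac2 ECKO and of labelled Ezh2 ECKO lay between 40.3 and 63.6 on it, and every other library between −55.5 and 6.3, including replicate 2 of both groups. Calls on the 9 members that change without 1 of these replicates are given both ways.

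In WT cortical endothelium the members ranked from 212 to 9465 among the 12577 genes tested. On the scale of CPM per kilobase of transcript, Klf2 stood highest, at 341 ± 116 (SD, n = 3, as for every group mean here). Nostrin followed at 177 ± 43.3, Klf4 at 149 ± 5.69, S1pr1 at 112 ± 13.1 and Edn1 at 102 ± 11.4, all above at least 94.2% of genes. The neighbours Nostrin and Klf4, and S1pr1 and Edn1, were closer than their spread. Nos3 was far lower, at 11.6 ± 2.61 CPM per kilobase, above 73.5% of genes. Map2k5 at 3.57 ± 0.888, Piezo1 at 1.46 ± 0.481 and Mapk7 at 0.841 ± 0.52 CPM per kilobase formed the low end, above 52.6%, 34.4% and 24.7% of genes. The transcription factors at the end of the cascade were thus measured from 9548 to 31615 counts per library, and the kinase gene Mapk7 from 38 to 187.

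None of the 9 members passed the threshold (adjusted p under 0.05, edgeR quasi-likelihood test) in any of the 6 comparisons. In Hdac2 ECKO against WT that was 0 of 9 where 9.2% of all tested genes were called (3.82% higher, 5.38% lower). In labelled Ezh2 ECKO against WT it was 0 of 9 where 1.03% of genes were called (0.342% higher, 0.684% lower). In beta-catenin GOF against WT 0% of all genes were called by edgeR. In that comparison 762 genes stood at an unadjusted p under 0.05, and DESeq2 called 38 genes, limma 7 and limma voom with sample quality weights 26. At an unadjusted p under 0.05 stood 2 members in Hdac2 ECKO (Klf4 and Nos3), 2 in labelled Ezh2 ECKO (Klf4 and S1pr1) and 1 in beta-catenin GOF (Edn1). Of all 12577 genes tested, 4161 stood at such a p in edgeR for Hdac2 ECKO against WT. For labelled Ezh2 ECKO against WT that count was 3111. In both comparisons the share of members was no higher than that of all genes. Against WT the median log2 fold change of the 9 members was 0.12, 0.09 and 0.02 in the 3 mutants, beside 0.10, 0.05 and 0.01 over all genes tested. The 3 comparisons share the WT libraries.

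**Figure D1:**
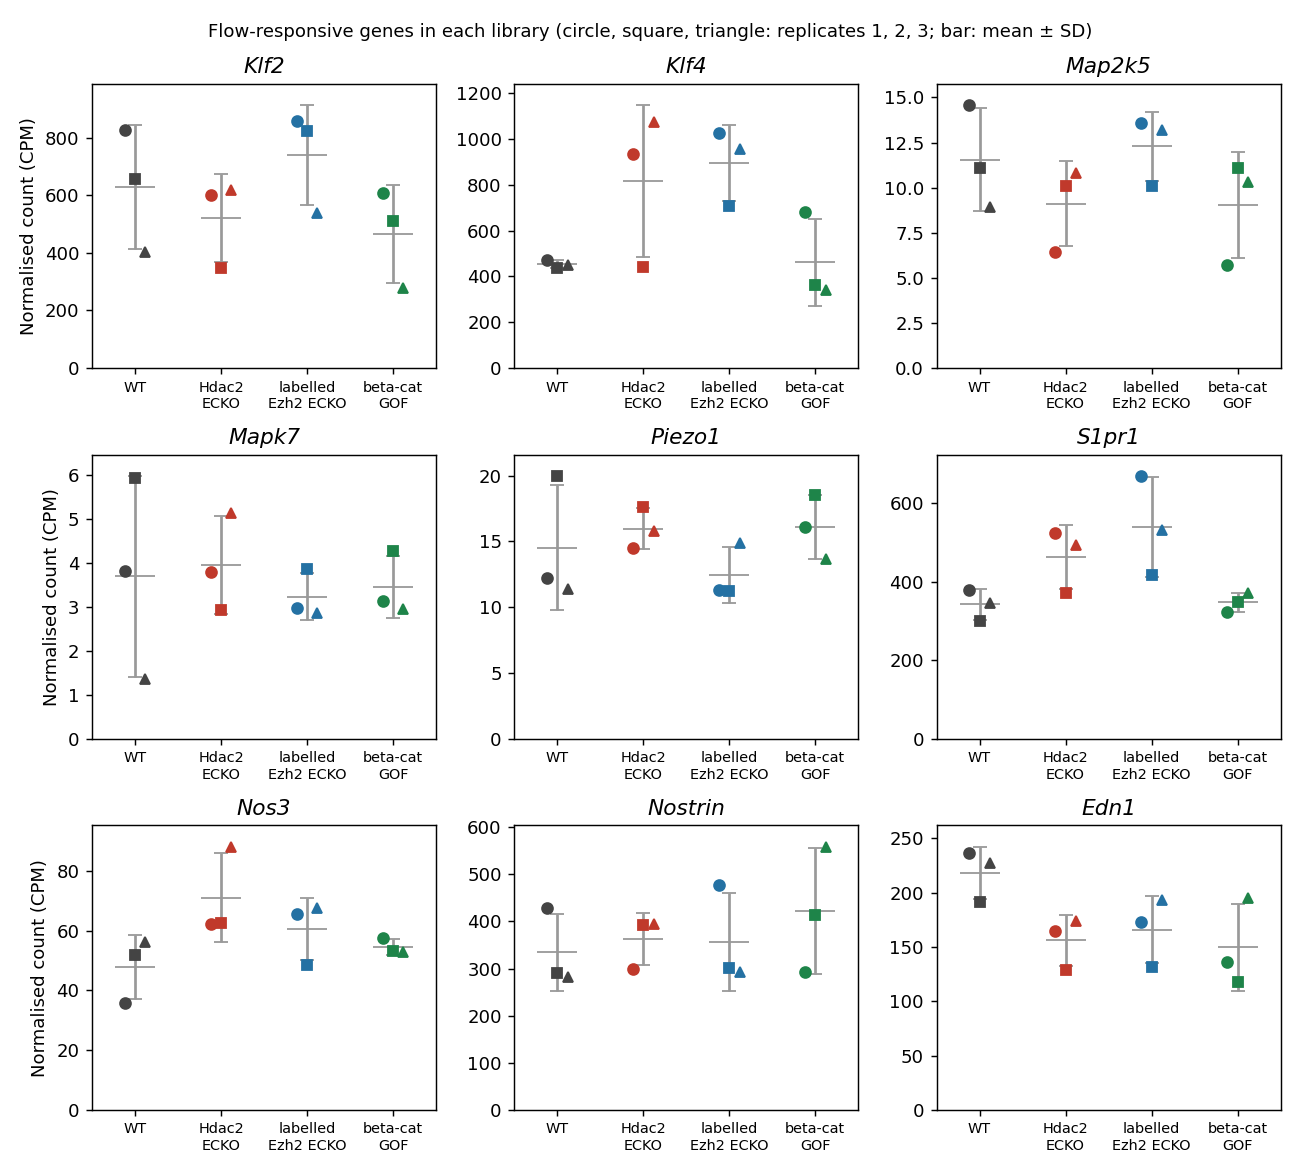
Normalised counts (CPM, vertical axis from 0) of the 9 genes in each of the 12 libraries, by group; symbols are replicates 1 to 3 and the grey bar is the mean ± SD. Klf4 was tight in WT, at 438 to 473 CPM, and reached 1074 CPM in Hdac2 ECKO, whose replicate 2 stayed at 442 CPM.

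Klf4, the KLF factor that shares many targets with Klf2 in endothelium (ENSMUSG00000003032.8, chromosome 4, 55527143 to 55532466, minus strand, GRCm38), had the largest differences. It was at 473, 438 and 450 CPM in WT and at 1024, 709 and 957 CPM in labelled Ezh2 ECKO. The groups did not overlap, as was the case for 22% of all genes in this comparison. The level was 1.98-fold that of WT (log2 fold change 0.98, SE 0.34, 95% interval 0.26 to 1.70), and it did not pass (adjusted p 0.1 in edgeR). In Hdac2 ECKO Klf4 was at 936, 442 and 1074 CPM. Replicates 1 and 3 were well above every WT library, and replicate 2 lay inside the WT range. The log2 fold change was 0.85 (SE 0.34, 95% interval 0.13 to 1.57, adjusted p 0.099 in edgeR). In beta-catenin GOF Klf4 was at 681, 363 and 340 CPM, on either side of WT, with a log2 fold change of 0.02 (SE 0.33, adjusted p 1 in edgeR). The call changed without replicate 2 of either group. Without replicate 2 of Hdac2 ECKO, Klf4 passed (log2 fold change 1.10, adjusted p 0.028 in edgeR). In that fit 2215 of 12577 genes were called, in place of 1157. Without replicate 2 of labelled Ezh2 ECKO Klf4 passed too (1.13, adjusted p 0.04 in edgeR). There 2329 of 12577 genes were called, in place of 129. Replicate 2 also lay apart from its group on the first principal component, and the part of that component in the Klf4 difference was not tested.

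Klf2, the flow-induced factor that drives Nos3 and thrombomodulin (ENSMUSG00000055148.7, chromosome 8, 72319033 to 72321656, plus strand), varied as much within groups as between them. It was at 829, 657 and 403 CPM in WT, while the Hdac2 ECKO libraries had 600, 347 and 618 CPM. Values of 859, 823 and 539 CPM were found in labelled Ezh2 ECKO, with 608, 512 and 277 CPM in beta-catenin GOF. All 4 groups overlapped. The group means ran from 740 ± 175 CPM in labelled Ezh2 ECKO through 630 ± 214 in WT and 521 ± 152 in Hdac2 ECKO to 466 ± 170 in beta-catenin GOF, and no neighbours in that order differed beyond their spread. Against WT the log2 fold change was −0.27 in Hdac2 ECKO (SE 0.35, 95% interval −1.01 to 0.46, adjusted p 0.61 in edgeR). It was 0.23 in labelled Ezh2 ECKO (adjusted p 0.71 in edgeR) and −0.44 in beta-catenin GOF (95% interval −1.17 to 0.30, adjusted p 0.91 in edgeR). A trend of the fold changes with gene length ran through the data (Spearman 0.44 across genes in Hdac2 ECKO), and Klf2 has a short transcript of 1847 bases. Corrected for length and GC content, the log2 fold change of Klf2 in Hdac2 ECKO turned to 0.48 (adjusted p 0.43 in edgeR), and that in labelled Ezh2 ECKO was 0.84 (adjusted p 0.19 in edgeR).

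The libraries with the least Klf2 were also among the lowest in immediate early genes, which rise soon after stimulation and during cell isolation. The list of 22 such genes summed to 12920, 6336 and 4562 CPM in WT, while the Hdac2 ECKO libraries had 5781, 2210 and 4608 CPM. For labelled Ezh2 ECKO the sums were 4762, 5569 and 5071 CPM, followed by 4726, 3500 and 3524 CPM for beta-catenin GOF. The pair of libraries with the least Klf2, beta-catenin GOF replicate 3 and Hdac2 ECKO replicate 2, had sums of 3524 and 2210 CPM. Labelled Ezh2 ECKO replicate 1 had the most Klf2 at a middling sum of 4762 CPM. In Hdac2 ECKO against WT 6 of the 22 genes fell and 0 rose, with a median log2 fold change of −0.58. Among them the stress factor Atf3 fell from 486 ± 306 to 91.2 ± 29.6 CPM (a log2 fold change of −2.41 with SE 0.42, adjusted p 0.032 in edgeR), and the AP-1 genes Jund and Junb fell by 2.40 and 2.18 (adjusted p 0.032 each in edgeR). Zfp36, whose product destabilises AU-rich mRNA, fell by 1.99 (adjusted p 0.032 in edgeR). In labelled Ezh2 ECKO 1 of 22 fell, Atf3 (138 ± 53.3 CPM, log2 fold change −1.81, adjusted p 0.048 in edgeR), and the median was −0.32. With the length and GC correction that call was lost (−1.43, adjusted p 0.053 in edgeR). In beta-catenin GOF none passed and the median was −1.03, with 21 of 22 values below 0. The part of this list in the level of Klf2 was not tested.

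**Figure D2:**
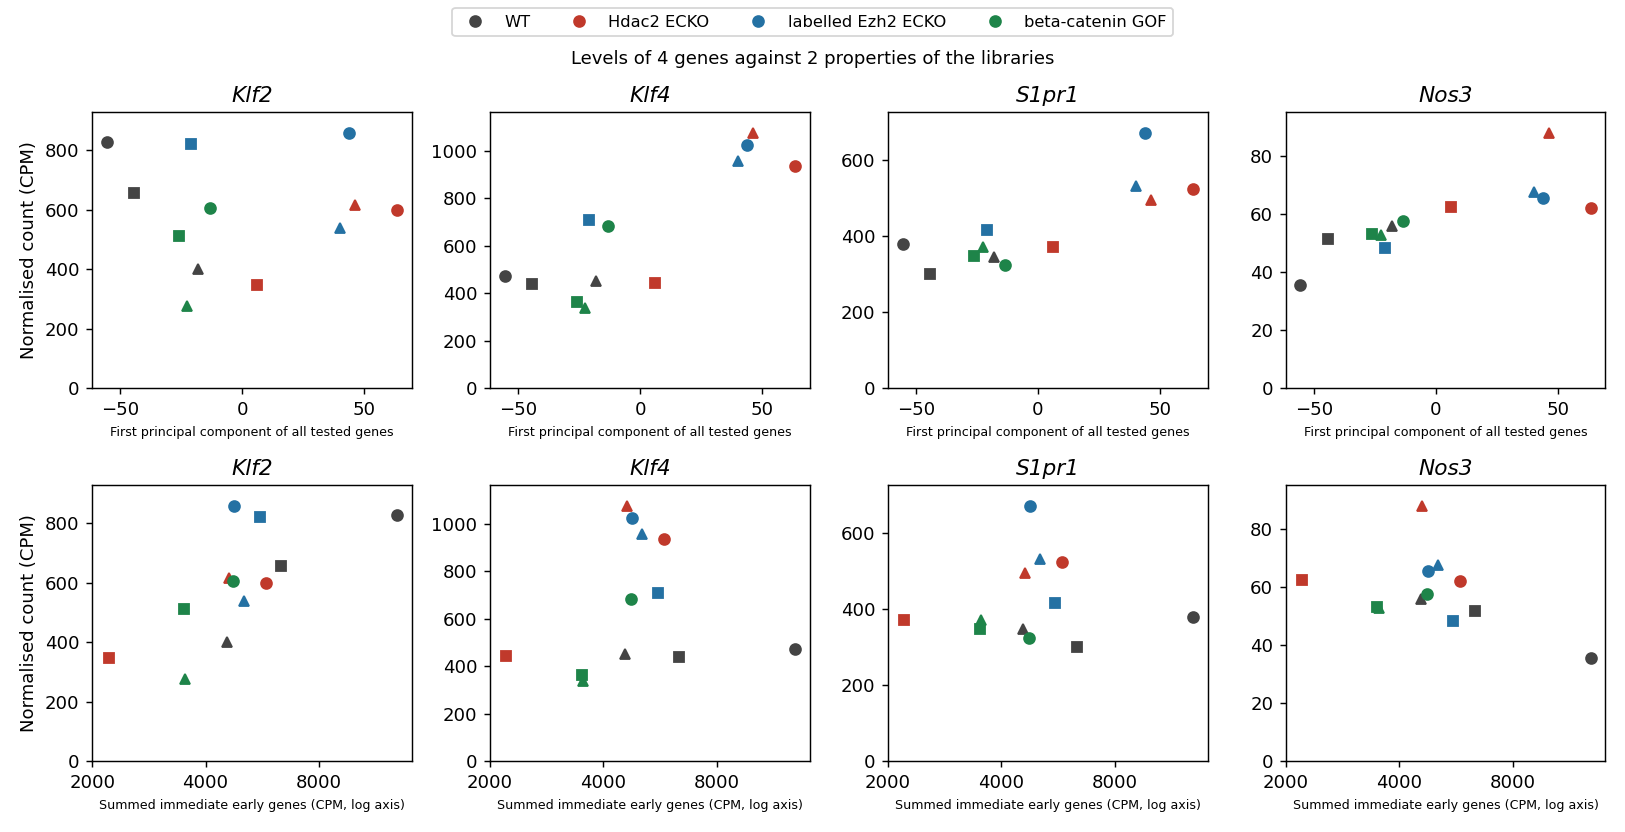
Levels of Klf2, Klf4, S1pr1 and Nos3 (CPM, vertical axes from 0) in the 12 libraries against the first principal component of all tested genes (upper row) and the summed level of 22 immediate early genes (lower row, CPM on a log axis); colours are groups, and circles, squares and triangles are replicates 1 to 3. The 4 knockout libraries beyond 40 on the first principal component had the highest Klf4 and S1pr1, while Klf2 showed no such order.

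Because the KLF factors share a cascade, their ratio was set out within each library, where scaling cancels. The count ratio Klf4/Klf2 was 0.57, 0.667 and 1.12 in WT and 1.56, 1.28 and 1.74 in Hdac2 ECKO. All 3 Hdac2 ECKO libraries, replicate 2 included, lay above all WT libraries. It was 1.19, 0.861 and 1.77 in labelled Ezh2 ECKO, while beta-catenin GOF had 1.12, 0.71 and 1.23, and both overlapped WT. The mean log2 ratio was −0.41 ± 0.51 in WT, 0.60 ± 0.23 in Hdac2 ECKO, 0.29 ± 0.52 in labelled Ezh2 ECKO, with −0.01 ± 0.42 in beta-catenin GOF. These ratios were not planned in advance and are a description without a test. The share of gene pairs whose ratios do not overlap was not computed. Transcripts of Klf4 (3049 bases) are longer than those of Klf2, and across genes longer transcripts had higher fold changes. Corrected for length and GC content, Klf4 had a log2 fold change of 1.24 in Hdac2 ECKO (adjusted p 0.059 in edgeR). In labelled Ezh2 ECKO it was 1.41 (adjusted p 0.055 in edgeR). These values were above the uncorrected 0.85 and 0.98, and stood beside 0.48 and 0.84 for Klf2 with the same correction.

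Map2k5 and Mapk7, the kinases MEK5 and ERK5 that carry the flow signal to MEF2, were low and did not differ detectably. Map2k5 (ENSMUSG00000058444.8, chromosome 9, 63163768 to 63377902, minus strand) was at 14.6, 11.1 and 8.93 CPM in WT, while the Hdac2 ECKO libraries had 6.44, 10.1 and 10.8 CPM. The labelled Ezh2 ECKO libraries stood at 13.6, 10.1 and 13.2 CPM and those of beta-catenin GOF at 5.69, 11.1 and 10.3 CPM. Its log2 fold changes against WT were −0.34, 0.09 and −0.36 (SE 0.34 each, adjusted p 0.51, 0.9 and 0.94 in edgeR). Mapk7 (ENSMUSG00000001034.17, chromosome 11, 61488812 to 61494406, minus strand) was at 3.82, 5.92 and 1.35 CPM in WT, while the Hdac2 ECKO libraries had 3.79, 2.94 and 5.13 CPM. Values of 2.98, 3.85 and 2.87 CPM were found in labelled Ezh2 ECKO, with 3.14, 4.27 and 2.96 CPM in beta-catenin GOF. WT alone spanned the levels of all mutants. The intervals were wide (−1.29 to 0.91 on the log2 scale in labelled Ezh2 ECKO), so at this depth and spread a 2-fold fall of Mapk7 was not detectable. Over the fits without 1 library its log2 fold change in Hdac2 ECKO ran from −0.30 to 0.61.

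The rest of the cascade gave 1 call. Of 13 other genes from MEKK2 and MEKK3 to MEF2 and the HEG1 and CCM complex, 0 rose and 1 fell in Hdac2 ECKO, and 0 of 13 passed in either of the other mutants. Their median log2 fold changes were 0.62, 0.33 and 0.24, beside 0.10, 0.05 and 0.01 over all genes. The gene that fell was Ccm2, the adaptor of the CCM complex that binds MEKK3 (31.5 ± 13.5 CPM in WT, 11.2 ± 3.93 in Hdac2 ECKO, log2 fold change −1.48, SE 0.42, adjusted p 0.044 in edgeR). Ccm2 averaged 9.74 ± 4.95 CPM in labelled Ezh2 ECKO and 19.1 ± 4.58 CPM in beta-catenin GOF, so a lower mean was not particular to Hdac2 ECKO. The MEF2 gene Mef2c averaged 139 CPM in Hdac2 ECKO and 80.1 CPM in WT, and the CCM-binding receptor Heg1 652 and 436 CPM. Neither passed, and both were named after their values were seen.

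Piezo1, the stretch-activated cation channel that opens under shear (ENSMUSG00000014444.17, chromosome 8, 122481698 to 122551329, minus strand), showed overlapping levels in all groups. It was at 12.2, 20 and 11.4 CPM in WT, while the Hdac2 ECKO libraries had 14.5, 17.6 and 15.8 CPM. For labelled Ezh2 ECKO the values were 11.3, 11.2 and 14.9 CPM, followed by 16.1, 18.5 and 13.7 CPM for beta-catenin GOF. The log2 fold changes against WT were 0.13, −0.22 and 0.15 (SE 0.29 each, adjusted p 0.77, 0.67 and 0.97 in edgeR). With the length and GC correction the value in Hdac2 ECKO turned to −0.29, and Piezo1 has the longest transcript of the members, 9935 bases. Of 19 other genes described as flow sensors, none passed against WT in any mutant (median log2 fold changes 0.26, 0.04 and 0.06).

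S1pr1, the receptor for sphingosine 1-phosphate that stabilises endothelial junctions under flow (ENSMUSG00000045092.8, chromosome 3, 115710433 to 115715072, minus strand), was at 380, 301 and 346 CPM in WT. It was at 670, 416 and 532 CPM in labelled Ezh2 ECKO, and every value there was above every WT value. In this comparison 22% of all genes did not overlap. The difference was 1.58-fold (log2 fold change 0.66, SE 0.24, 95% interval 0.14 to 1.17) and did not pass (adjusted p 0.12 in edgeR). In Hdac2 ECKO it was at 524, 370 and 493 CPM, overlapping WT only through replicate 2 (log2 fold change 0.43, SE 0.24, adjusted p 0.22 in edgeR). In beta-catenin GOF it was at 323, 348 and 371 CPM, inside the WT range (log2 fold change 0.02, adjusted p 1 in edgeR). As with Klf4, leaving out replicate 2 of labelled Ezh2 ECKO brought S1pr1 past the threshold (0.81, adjusted p 0.028 in edgeR). That fit called 2329 of 12577 genes, in place of 129.

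Among 11 other genes of sphingosine 1-phosphate synthesis, transport and reception, 1 rose in Hdac2 ECKO and 0 fell, and none passed in the other mutants (median log2 fold changes 0.62, −0.07 and −0.11). That gene was S1pr3, a receptor that smooth muscle and pericytes also express, which averaged 1.65 ± 1.44 CPM in Hdac2 ECKO and 0.0448 ± 0.039 CPM in WT (adjusted p 0.046 in edgeR). WT was under the limit of 3 counts (0.0831 to 0.121 CPM), so no fold is given. S1pr3 averaged 0.549 ± 0.488 CPM in labelled Ezh2 ECKO and 1.07 ± 0.514 CPM in beta-catenin GOF. Markers of pericytes and smooth muscle, 15 in all, summed to 71.2, 92 and 133 CPM in WT. They summed to 366, 151 and 267 CPM in Hdac2 ECKO and to 443, 132 and 141 CPM in beta-catenin GOF. In labelled Ezh2 ECKO the sums were 65.5, 86.6 and 67.9 CPM, so there the markers did not rise beside the higher mean of S1pr3. In Hdac2 ECKO 6 of the 14 markers tested rose and 0 fell (median log2 fold change 2.41), and 0 passed in labelled Ezh2 ECKO (0.19) and beta-catenin GOF (1.36). With the length and GC correction S1pr3 no longer passed (adjusted p 0.052 in edgeR), nor did it with the replicate block (0.056). Sorting CD31+ cells is meant to leave pericytes and smooth muscle out. Their part in S1pr3 was not tested, and in bulk RNA more cells of a type and more RNA per cell cannot be told apart.

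Nos3, the endothelial nitric oxide synthase (ENSMUSG00000028978.12, chromosome 5, 24364810 to 24384474, plus strand), was at 35.6, 51.7 and 56.1 CPM in WT and 62.3, 62.5 and 88.1 CPM in Hdac2 ECKO. The groups did not overlap, as was so for 37.8% of all genes in this comparison. The level was 1.49-fold that of WT (log2 fold change 0.57, SE 0.25, 95% interval 0.03 to 1.11) and did not pass (adjusted p 0.13 in edgeR). Without Hdac2 ECKO replicate 3 it was 0.37 (adjusted p 0.43 in edgeR). It was at 65.5, 48.4 and 67.6 CPM in labelled Ezh2 ECKO (0.34, adjusted p 0.41 in edgeR) and at 57.6, 53.1 and 52.9 CPM in beta-catenin GOF (0.19, adjusted p 0.95 in edgeR). In both, WT overlapped. The exons of Nos3 overlap those of Atg9b and Gm15587 on the opposite strand. The use of strand in counting is not given in the sources used here, so how reads from the overlapping exons were assigned is not known. Atg9b followed Nos3 closely over the 12 libraries (r = 0.95).

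Nostrin, whose product moves the synthase from the membrane into vesicles (ENSMUSG00000034738.8, chromosome 2, 69135800 to 69189330, plus strand), was abundant and did not separate the groups. It was at 429, 291 and 283 CPM in WT, while the Hdac2 ECKO libraries had 300, 393 and 395 CPM. The labelled Ezh2 ECKO libraries stood at 477, 302 and 292 CPM and those of beta-catenin GOF at 293, 413 and 559 CPM. The log2 fold changes against WT were 0.12, 0.09 and 0.33 (SE 0.29 each, adjusted p 0.8, 0.87 and 0.93 in edgeR). In labelled Ezh2 ECKO the value turned to −0.20 without replicate 1.

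Other genes of nitric oxide production and signalling did pass in Hdac2 ECKO: of 25 tested, 3 rose and 3 fell, with a median log2 fold change of −0.11. Cav1, the caveolar protein that holds the synthase inactive, fell from 1227 ± 463 to 520 ± 83.9 CPM (a log2 fold change of −1.24 with SE 0.30, adjusted p 0.034 in edgeR). Nosip, which binds the synthase and lowers its activity, fell from 61.6 ± 13.5 to 21.8 ± 8.11 CPM (−1.50, adjusted p 0.038 in edgeR). Prkg1, the cGMP-dependent kinase, rose from 4.25 ± 0.902 to 16.1 ± 6.85 CPM (1.92, adjusted p 0.032 in edgeR), and Pde5a, the phosphodiesterase that removes cGMP, from 8.31 ± 5.19 to 33.6 ± 2.51 CPM (2.01, adjusted p 0.032 in edgeR). Corrected for length and GC content, Prkg1 and Pde5a had log2 fold changes of 1.18 and 1.41, both past the threshold (adjusted p 0.034 and 0.042 in edgeR), while 2 of the 6 calls were lost. Prkg1 and Pde5a act in smooth muscle and pericytes, which sorting CD31+ cells is meant to leave out. Markers of those cells were higher in the Hdac2 ECKO libraries. Myh11 was at 3.38 ± 0.557 CPM in WT and 35.6 ± 24.5 in Hdac2 ECKO (adjusted p 0.032 in edgeR). In labelled Ezh2 ECKO Prkg1 averaged 12.1 ± 2.08 CPM and Pde5a 9.88 ± 3.18 CPM, beside 3.63 ± 2.05 CPM for Myh11. In beta-catenin GOF these genes averaged 10.6 ± 3.23, 15.4 ± 4.54 and 11.9 ± 11.8 CPM. The part of those cells was not tested. None of the 25 passed in labelled Ezh2 ECKO or beta-catenin GOF (median −0.04 and 0.02).

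Edn1, the precursor of endothelin-1 that Klf2 lowers (ENSMUSG00000021367.8, chromosome 13, 42301476 to 42307990, plus strand), had its highest mean in WT, at 237, 191 and 227 CPM. It was at 165, 129 and 174 CPM in Hdac2 ECKO, with every value below every WT value. In this comparison 37.8% of all genes did not overlap. The level was 0.713 times that of WT (log2 fold change −0.49, SE 0.25, 95% interval −1.02 to 0.05) and did not pass (adjusted p 0.19 in edgeR). In labelled Ezh2 ECKO it was at 173, 132 and 193 CPM (−0.40, adjusted p 0.34 in edgeR). In beta-catenin GOF it was at 136, 118 and 195 CPM, the lowest mean (150 ± 40.1 CPM), with a log2 fold change of −0.55 (95% interval −1.08 to −0.01, adjusted p 0.82 in edgeR). Labelled Ezh2 ECKO and beta-catenin GOF reached into the WT range through replicate 3. Among beta-catenin GOF and WT values 12.7% of all genes did not overlap, and 0 of the 9 members were among them. Corrected for length and GC content, Edn1 had a log2 fold change of −0.09 in Hdac2 ECKO and in labelled Ezh2 ECKO (adjusted p 0.86 each in edgeR), and −0.43 in beta-catenin GOF. Edn1 exons overlap those of Gm47118 on the opposite strand, as do those of Piezo1 with Ctu2 and of Mapk7 with Mfap4. Of 5 other genes of the endothelin system none passed in any mutant (median log2 fold changes 1.32, 0.09 and 0.44). The higher means in Hdac2 ECKO were mostly of genes at low levels. Ednra, Ednrb and Mme averaged 0.446, 0.792 and 0.722 CPM in WT and 2.23, 3.6 and 1.81 CPM in Hdac2 ECKO. Ece1 averaged 83 and 94.6 CPM, and Edn3 42.1 and 40.6 CPM. These 5 genes were named after their values were seen.

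**Figure D3:**
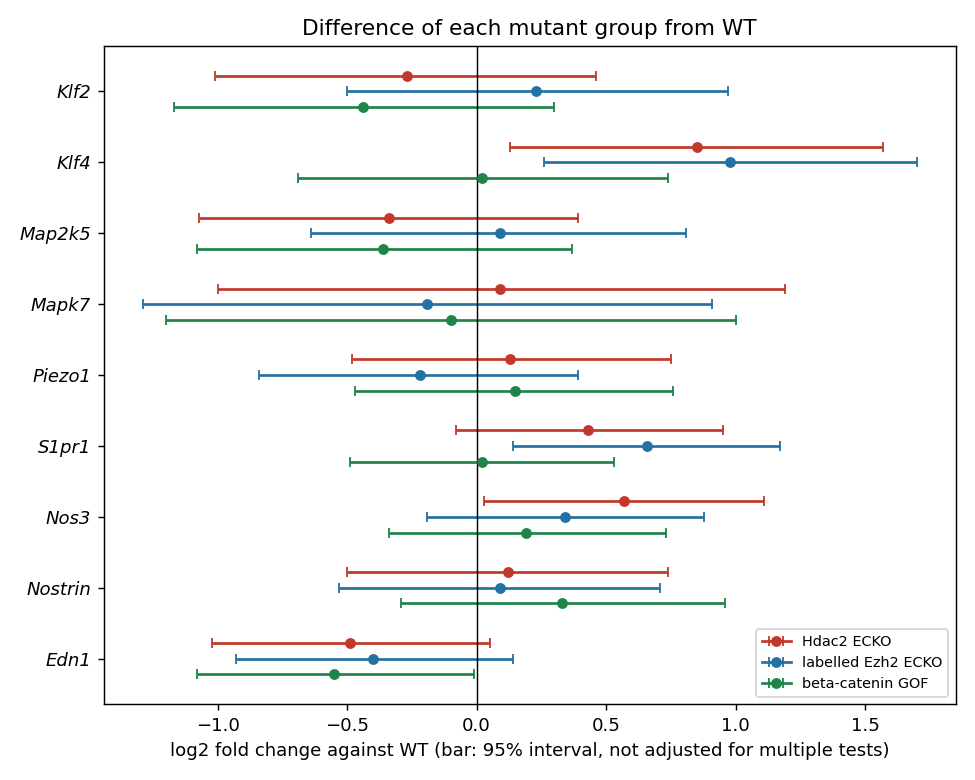
Log2 fold change of each member against WT in Hdac2 ECKO, labelled Ezh2 ECKO and beta-catenin GOF, with 95% intervals that are not adjusted for the number of genes. Intervals clear of 0 belong to Klf4 and Nos3 in Hdac2 ECKO, Klf4 and S1pr1 in labelled Ezh2 ECKO, and Edn1 in beta-catenin GOF, and none of these passed after adjustment.

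The vasodilator and vasoconstrictor genes were also set against each other within each library. The count ratio Nos3/Edn1 was 0.15, 0.271 and 0.246 in WT, 0.377, 0.485 and 0.508 in Hdac2 ECKO and 0.379, 0.366 and 0.351 in labelled Ezh2 ECKO. Every library of both groups, replicate 2 included, lay above every WT library. In beta-catenin GOF it was 0.425, 0.449 and 0.271, with replicate 3 at the top of the WT range. The mean log2 ratio was −2.21 ± 0.46 in WT, −1.14 ± 0.23 in Hdac2 ECKO, −1.45 ± 0.06 in labelled Ezh2 ECKO, with −1.42 ± 0.40 in beta-catenin GOF. The ratio was chosen with values known and has no test. The share of gene pairs whose ratios do not overlap was not computed. Nos3/Nostrin was also set out, and it overlapped WT in every mutant. It was 0.0829 to 0.198 in WT and 0.159 to 0.223 in Hdac2 ECKO. In labelled Ezh2 ECKO it was 0.137 to 0.232, and in beta-catenin GOF 0.0946 to 0.197. The transcript of Nos3 (4132 bases) is longer than that of Edn1 (2139 bases), so the length trend moves with the ratio. With that trend removed, Hdac2 ECKO differed from WT by 0.69 in Nos3 and −0.09 in Edn1 on the log2 scale.

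**Figure D4:**
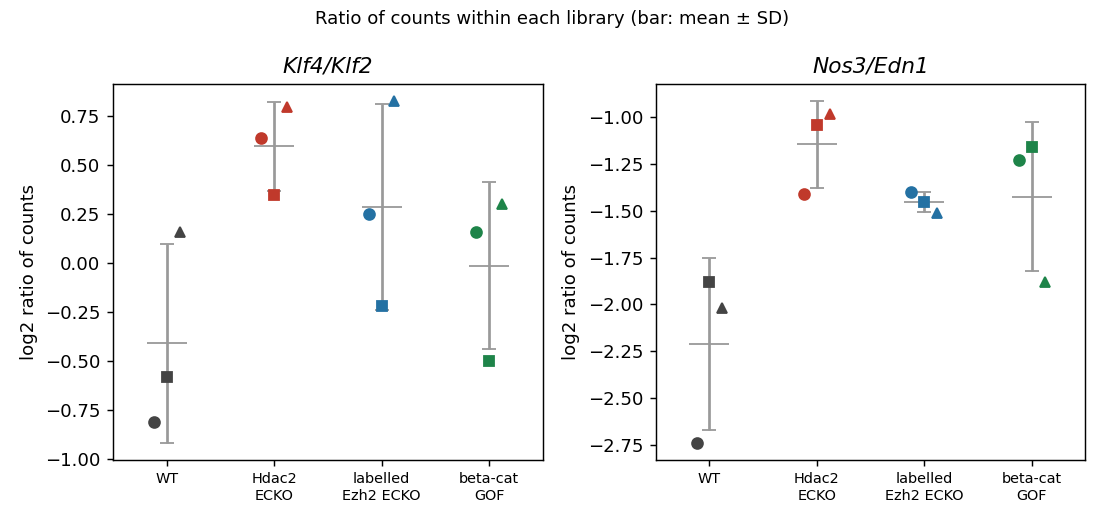
Log2 ratio of counts within each library for Klf4 over Klf2 (left) and Nos3 over Edn1 (right), by group; symbols are replicates 1 to 3 (circle, square, triangle) and the bar is the mean ± SD. For Nos3/Edn1 the WT libraries lie lowest, at count ratios of 0.15 to 0.271, and the Hdac2 ECKO libraries at 0.377 to 0.508.

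Genes that laminar flow or the KLF factors are known to induce gave 1 call. Of 24 tested besides the members, 0 rose and 1 fell in Hdac2 ECKO, and none passed in labelled Ezh2 ECKO or beta-catenin GOF. Their median log2 fold changes were −0.24, −0.60 and −0.07. The gene that fell was Ass1, an enzyme of the route that turns citrulline back into arginine (9.69 ± 4.88 CPM in WT, 1.28 ± 0.929 in Hdac2 ECKO, log2 fold change −2.91, SE 0.68, adjusted p 0.034 in edgeR). Ass1 also had lower means than WT in labelled Ezh2 ECKO (2.67 ± 1.77 CPM) and beta-catenin GOF (3.29 ± 1.1 CPM). Thbd, the anticoagulant receptor thrombomodulin, was at 115 ± 29.7 CPM in WT, 176 ± 41.4 in Hdac2 ECKO, 232 ± 26.1 in labelled Ezh2 ECKO, with 102 ± 14.6 in beta-catenin GOF. It did not pass in any mutant and was named after its values were seen. Of 17 genes that laminar flow lowers, 1 rose and 0 fell in Hdac2 ECKO and in labelled Ezh2 ECKO, and 0 passed in beta-catenin GOF (median log2 fold changes 0.11, −0.16 and 0.31). That gene was Ccn2, a target of YAP and TAZ, at 17.6 ± 3.02 CPM in WT, 39.7 ± 3.53 in Hdac2 ECKO (log2 fold change 1.18, adjusted p 0.041 in edgeR) and 49.8 ± 17.6 in labelled Ezh2 ECKO (1.50, adjusted p 0.048 in edgeR).

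Within the KLF family Klf2 and Klf4 were the most abundant in WT per kilobase, followed by Klf6 at 69.1 ± 21.4, Klf10 at 25.6 ± 3.32 and Klf9 at 20.9 ± 9.15 CPM per kilobase. Of 13 other family members tested, 3 rose and 0 fell in Hdac2 ECKO, 1 rose and 0 fell in labelled Ezh2 ECKO and 0 passed in beta-catenin GOF (median log2 fold changes 0.43, 0.68 and 0.16). In Hdac2 ECKO Klf9, a glucocorticoid-induced factor, rose from 100 ± 44.1 to 226 ± 58.6 CPM (a log2 fold change of 1.17 with SE 0.33, adjusted p 0.043 in edgeR). Klf7 rose from 86.2 ± 21.3 to 184 ± 43.9 CPM (1.09, adjusted p 0.036 in edgeR) and Klf12 from 21.7 ± 5.38 to 48.3 ± 12.4 CPM (1.16, adjusted p 0.039 in edgeR). Klf12 stood at 60.2 ± 19.9 CPM in labelled Ezh2 ECKO (1.47, adjusted p 0.046 in edgeR). With the length and GC correction Klf7, Klf12 and Klf9 no longer passed in Hdac2 ECKO (0.57, 0.72 and 0.99, adjusted p 0.09, 0.068 and 0.063 in edgeR), while Klf12 did in labelled Ezh2 ECKO (1.21, adjusted p 0.039 in edgeR).

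The calls on these other genes rested on few libraries. Each named gene was lost in the fits without WT replicate 1, WT replicate 2, or replicate 1 or 3 of the mutant, with adjusted p up to 0.23. Ccn2 was also lost without Hdac2 ECKO replicate 2 and S1pr3 without WT replicate 3. Over all genes these fits gave 0 to 2215 calls in Hdac2 ECKO against WT and 2 to 2329 in labelled Ezh2 ECKO against WT. Scaling by library size alone moved the median of all genes in Hdac2 ECKO from 0.10 to 0.34, and the calls from 480 higher and 677 lower to 1462 higher and 357 lower. Directions are therefore relative to the scaling.

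Between mutants no member passed. In Hdac2 ECKO against labelled Ezh2 ECKO 0.0239% of all genes were called and 13.2% did not overlap. The smallest adjusted p of a member was 0.71 (edgeR, Klf2, log2 fold change −0.51), and 0 of 9 members had groups that did not overlap. In beta-catenin GOF against Hdac2 ECKO 0.0716% of genes were called and 32% did not overlap. Klf4 had a log2 fold change of −0.83 (SE 0.34, adjusted p 0.2 in edgeR), and Nos3 was the 1 member without overlap (−0.38, adjusted p 0.39 in edgeR). In beta-catenin GOF against labelled Ezh2 ECKO 0.0636% of genes were called and 16.7% did not overlap. Klf4 and S1pr1 were below every labelled Ezh2 ECKO value, with log2 fold changes of −0.96 and −0.63 (adjusted p 0.31 and 0.32 in edgeR).

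The genes most like Klf2, Klf4 and Nos3 were taken by Pearson's r of log2(CPM + 1) over the 12 libraries, among the 10815 genes whose mean count was 50 or more. This is a description, since libraries share groups and the first principal component. For Klf2 they were Sik3, Mta1, Tfam, Prdm1 and Pip4p2 (r from 0.81 to 0.84), and without the 2 libraries farthest from the median r was 0.51 to 0.73. For Klf4 they were Gm20449, Slc36a4, Tob2, Cep85l and Abi1 (0.93 to 0.95), and 0.89 to 0.95 without those 2 libraries. For Nos3 they were Vps13d, Sp1, Rad9b, Rfx1 and the overlapping Atg9b (0.95 to 0.96, then 0.80 to 0.89). Among the members themselves r was highest for Klf4 with S1pr1, at 0.81, while Klf2 with Klf4 stood at 0.55 and Klf2 with Nos3 at −0.16.

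Markers of other cells were set beside these results. Of the 18 endothelial markers 1 rose (Erg) and 1 fell (Egfl7) in Hdac2 ECKO, and 0 passed in the other mutants. Of 10 arterial markers 0 passed, and of 8 venous markers 1 fell in Hdac2 ECKO (Ctsc). The medians of the arterial list were 0.00, −0.01 and 0.23 in the 3 mutants. Blood cell and platelet genes summed to 36131 to 61389 CPM in WT, 406 to 21713 in Hdac2 ECKO, 2530 to 6711 in labelled Ezh2 ECKO and 528 to 35392 in beta-catenin GOF, and 1 of 8 fell in Hdac2 ECKO (Alas2). Leukocyte and microglia markers reached at most 16.7 CPM in all, with 1 of 6 lower in Hdac2 ECKO and in labelled Ezh2 ECKO (Cd53, at 0 in every mutant library, beta-catenin GOF included), and 2 to 11 of 13 markers at 0. Fibroblast, astrocyte, oligodendrocyte and neuron markers summed to at most 5.72, 79.9, 81 and 4.05 CPM, and 0 of the 3, 4, 4 and 1 tested passed. The part of these cells in the levels of the 9 members was not tested.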

How the data were processed

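RNA from sorted endothelial cells was prepared with SMART-Seq v4 PLUS and sequenced as read pairs, per the labels' protocols. FastQC, cutadapt, STAR, featureCounts and DESeq2 with build mm10 are named in the submitters' processing notes, without versions. The deposited table is titled normalized, but its values were whole-number counts: 79.5% to 84.0% of values from 10 to 50 were even, against 59.4% to 67.1% from 300 to 1000, as when both mates are counted. They were used as raw counts. Table positions matched GENCODE on GRCm38 for 99.1% of genes and are given from 1. Genes whose mean count was 10 or more were tested with edgeR 4.0.16 in R 4.3.3 (quasi-likelihood F test, TMM scaling, 1 model over 12 libraries), and a gene was called at a Benjamini-Hochberg adjusted p under 0.05 in its contrast, of 6. SE and intervals come from the F statistic, and all cover spread between libraries. CPM use TMM-scaled totals, and 3 counts equal 0.0831 to 0.121 CPM, which covers counting error only. Alternatives were DESeq2 1.42.0, limma 3.58.1, other scalings and filters, a length and GC correction, a replicate block and leaving out each library. The members and gene lists were chosen with earlier results of these data known. Named are all members, the 5 genes most like Klf2, Klf4 and Nos3, and at most 4 called genes per list in order of p, other names being marked. Replicate numbers come from the titles. Deviations of same-numbered libraries correlated over 0.1 in 6 of 18 pairs (−0.25 to 0.43), and in every pair only for Hdac2 ECKO with labelled Ezh2 ECKO.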

Additional observations from a re-analysis of the deposited data

How the results depend on the processing

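The 9 members gave 54 log2 fold changes over 6 comparisons and 918 alternative values, of which 851 kept their sign and 15 passed the threshold. With 3 libraries per group and an SE of 0.24 to 0.52, only large changes could pass. In Hdac2 ECKO against WT, 0 members were called. With scaling by library size alone 1 was called (Klf4, adjusted p 0.038 in edgeR), where 1819 of 12577 genes were. With limma voom and sample quality weights 3 were called (Klf4, Nos3 and S1pr1), where 5374 of 12577 genes were. In labelled Ezh2 ECKO against WT, no filter on low counts gave 1 member (Klf4, adjusted p 0.034 in edgeR), where 1367 of 20343 genes were called. DESeq2 gave 1 member (Klf4, adjusted p 0.043), where 1280 of 12577 genes were called. The length and GC correction gave 1 member (S1pr1, adjusted p 0.048 in edgeR), where 341 of 12548 genes were called. Quality weights gave 2 members (Klf4 and S1pr1), where 3743 of 12577 genes were called. With those weights 1 member was called in beta-catenin GOF against Hdac2 ECKO (Klf4), where 3339 of 12577 genes were. In beta-catenin GOF against labelled Ezh2 ECKO 2 members were called (Klf4 and S1pr1), where 1462 of 12577 genes were. Leaving out single libraries gave 0 to 1 members in Hdac2 ECKO against WT, 0 to 2 in labelled Ezh2 ECKO against WT and 0 in the other comparisons. Members were called only without replicate 2 of the knockout, where 2215 and 2329 of 12577 genes were called. With the replicate block 0 members were called in every comparison, as without it, and over all genes the calls were 1832 in Hdac2 ECKO and 536 in labelled Ezh2 ECKO against WT, in place of 1157 and 129. The cause of these differences was not tested.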

Other observations

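Ctnnb1, the gene of beta-catenin and the target in beta-catenin GOF, was chosen here after its values were seen, because its order over the libraries resembled that of Klf4. It was at 546, 607 and 809 CPM in WT and at 695, 575 and 478 CPM in beta-catenin GOF. The Hdac2 ECKO libraries stood at 1302, 844 and 1324 CPM and labelled Ezh2 ECKO at 1303, 753 and 1248 CPM, so replicate 2 was the lowest of each knockout, as for Klf4. The log2 fold changes against WT were 0.82 in Hdac2 ECKO and 0.75 in labelled Ezh2 ECKO with an SE of 0.29. They missed the threshold, at an adjusted p of 0.071 and 0.13 in edgeR. All Hdac2 ECKO values were above all WT values, and all beta-catenin GOF values were below those of both knockouts. Over all genes, 37.8% did not overlap in Hdac2 ECKO against WT. That share was 32% for beta-catenin GOF against Hdac2 ECKO and 16.7% for beta-catenin GOF against labelled Ezh2 ECKO. Replicates 1 and 3 of the knockouts lay highest on the first principal component, and the part of that component in the Ctnnb1 level was not tested.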
